A study of Mus musculus with 6 samples.

Results

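The small nucleolar and structured RNAs described here are the rows of a mouse uterine gene count table that carry a Snord, Snora or Scarna symbol followed by a number, together with Rmrp, Rn7sk and Rpph1. The rule that picks them reads only the symbol, although it was set with earlier results of these data known. They make 126 of the 26586 genes in the table. Of these, 76 are Snord, 38 Snora and 9 Scarna genes. The RNAs were measured in 2 fractions of cells sorted from the endometrial epithelium of 3 mice that carry Axin2rtTA and tetOH2BJGFP, so that the Axin2 promoter drives an activator which, with doxycycline, switches on a green fluorescent histone. The ovaries of all mice had been removed at an age of 4 weeks, and doxycycline followed after a rest of 2 weeks. Their uteri were taken 4 days later, and the age given is 6 weeks for every library. Fluorescent cells make up the Axin2+ fraction (3 libraries) and non-fluorescent cells of the same mice the Axin2- fraction (3 libraries), so both fractions share the transgenes, the surgery and the drug, and what separates them is reporter fluorescence. The submitters number the libraries by mouse and also write that cells of the mice were pooled. If the libraries came from pools, the p-values below measure only the spread between libraries of a pool.

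Small nucleolar RNAs (snoRNAs) guide the chemical modification of ribosomal RNA in the nucleolus. Box C/D snoRNAs (Snord) direct methylation of the ribose, box H/ACA snoRNAs (Snora) direct the conversion of uridine to pseudouridine, and a few of each kind are needed for cutting the ribosomal precursor rather than for modifying it. Small Cajal body RNAs (Scarna) have the same architectures but modify the RNAs of the spliceosome. Most vertebrate snoRNAs are cut out of the introns of host genes, many of which encode ribosomal proteins or are spliced non-coding RNAs. Rmrp is the RNA of the RNase MRP ribozyme, which cuts the ribosomal precursor. Rpph1 is the RNA of RNase P, which trims transfer RNA precursors and shares most of its proteins with RNase MRP. Rn7sk is the 7SK RNA, which holds the transcription elongation kinase P-TEFb inactive together with HEXIM proteins. These last RNAs are made by RNA polymerase III from their own promoters.

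Sequences of 7 members are shown because the results turn on them: Rmrp had one of the smallest p-values, Snord15b was the most abundant snoRNA and shares a host with Snord15a, Snora73b and Snora73a are near copies, Snora70 had the lowest fold change among the Snora genes, and Scarna13 did not pass the test. They are the GENCODE M21 transcripts on GRCm38, written 5′ to 3′. Capitals mark, in Snord RNAs, the C box (NTGATGA within the first 30 bases) and the D box (CTGA within the last 20 bases), and in Snora and Scarna RNAs the ACA trinucleotide within the last 9 bases. Only the strand of the RNA was searched. Rmrp belongs to neither box class and carries no capitals.
Rmrp: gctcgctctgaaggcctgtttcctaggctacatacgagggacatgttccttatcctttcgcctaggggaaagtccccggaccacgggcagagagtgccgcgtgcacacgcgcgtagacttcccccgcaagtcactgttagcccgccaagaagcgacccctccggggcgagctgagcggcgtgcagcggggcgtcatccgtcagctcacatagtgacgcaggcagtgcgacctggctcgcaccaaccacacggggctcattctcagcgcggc
Snord15b: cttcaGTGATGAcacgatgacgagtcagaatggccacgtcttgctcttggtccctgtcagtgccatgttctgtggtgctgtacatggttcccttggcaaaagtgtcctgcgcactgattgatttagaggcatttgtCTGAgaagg
Snord15a: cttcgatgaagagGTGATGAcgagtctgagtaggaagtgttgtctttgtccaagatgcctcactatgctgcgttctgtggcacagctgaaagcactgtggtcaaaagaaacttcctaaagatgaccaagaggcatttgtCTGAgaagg
Snora73b: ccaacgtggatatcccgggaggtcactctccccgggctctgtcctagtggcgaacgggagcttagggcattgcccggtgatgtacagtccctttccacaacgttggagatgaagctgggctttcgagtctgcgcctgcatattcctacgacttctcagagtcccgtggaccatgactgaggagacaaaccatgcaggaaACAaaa
Snora73a: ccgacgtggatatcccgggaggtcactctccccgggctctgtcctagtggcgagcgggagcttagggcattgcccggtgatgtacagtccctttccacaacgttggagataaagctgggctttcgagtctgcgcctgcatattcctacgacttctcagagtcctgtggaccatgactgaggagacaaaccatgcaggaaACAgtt
Snora70: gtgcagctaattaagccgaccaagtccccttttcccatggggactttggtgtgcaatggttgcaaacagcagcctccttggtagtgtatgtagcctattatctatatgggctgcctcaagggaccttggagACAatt
Scarna13: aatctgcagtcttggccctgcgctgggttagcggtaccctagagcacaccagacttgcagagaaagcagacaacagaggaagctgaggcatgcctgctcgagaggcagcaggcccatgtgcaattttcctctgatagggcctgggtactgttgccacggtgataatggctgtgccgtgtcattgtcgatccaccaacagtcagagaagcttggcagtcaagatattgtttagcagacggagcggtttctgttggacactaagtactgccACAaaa

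Rmrp lies at chr4:43492788-43493058 on the minus strand, with no annotated gene around it on that strand. Snord15b (chr7:99479563-99479707, minus strand) and Snord15a (chr7:99482785-99482932, minus strand) lie in the ribosomal protein gene Rps3. Snora73b (chr4:132352322-132352526, minus strand) and Snora73a (chr4:132352775-132352979, minus strand) lie in introns of Rcc1. The body of the non-coding gene Snhg3 contains both as well, and the host comparison below used Rcc1. Snora70 lies in Rpl10 (chrX:74272484-74272620, plus strand) and Scarna13 in an intron of Snhg10 (chr12:105031075-105031349, minus strand). Snora73b and Snora73a were identical in 96.6% of aligned columns, with 7 differing, so reads could be split between them, whereas Snord15b and Snord15a were identical in 66.0% and shared no run longer than 21 bases. Among the members with a sequence off chromosome 18, the D box letters were found in 72 of 74 Snord RNAs and in 4 of 37 Snora RNAs. The C box letters were found in 48 of the Snord RNAs and in 0 of the Snora RNAs, and the ACA letters in 7 Snord RNAs and 35 Snora RNAs. The symbols and the sequence classes thus matched for most members.

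Library totals ran from 49714402 to 59597315 counts, and values are given as CPM (counts scaled to a common library total), scaled with TMM factors. Ribosomal RNA rows took 15.96 ± 1.06% of counts in Axin2+ and 18.2 ± 4.85% in Axin2- libraries (SD, n = 3 each). The Axin2- library of mouse 3 stood apart, with 23.8% ribosomal RNA against 14.7 to 16.7% in the other libraries, and with the lowest share of read pairs assigned to 1 feature (29.26%). Among the 3 Axin2- libraries it was the highest for 63 of the 108 members with a test. Without it the log2 fold change was -2.16 for Rmrp, -0.95 for Rn7sk and -1.52 for Snord15b, each still called, and the log2 ratio of sums was -1.48 for Snord, -1.31 for Snora and -0.02 for Scarna RNAs. Axin2 itself was not higher in the Axin2+ libraries, with 165, 243 and 299 CPM against 369, 357 and 356 CPM in Axin2- libraries (mice 1, 2 and 3, as in all such lists). All 12 listed epithelial markers were higher in Axin2+ libraries, with summed levels of 2539 to 3669 CPM against 224 to 330.2 CPM in Axin2- libraries. All 10 smooth muscle markers were lower, with 286 to 461 CPM in Axin2+ against 2558 to 6878 CPM in Axin2- libraries. Of 10 stromal markers 8 were lower (3452 to 4600.05 CPM in Axin2+, 10748 to 21458 CPM in Axin2-), and of 9 tested T and NK cell markers 6 were lower (0.491 to 2.59 CPM in Axin2+, 29.1 to 32.6 CPM in Axin2-). Of 10 macrophage markers 9 were higher (748 to 4138 CPM in Axin2+, 71.6 to 379 CPM in Axin2-), as were 7 of 10 endothelial markers (252 to 449.9 CPM in Axin2+, 196 to 240.4 CPM in Axin2-). None of the listed defining markers was at 0 throughout a fraction. The fractions thus differed in cell makeup as well as in reporter fluorescence, and the part of this difference in the results below was not tested. In such bulk libraries, fewer cells of a type and less RNA per cell cannot be told apart.

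Many small nucleolar and structured RNAs were lower in the Axin2+ fraction and none was called higher. Of the 126 members, 108 had enough counts to be tested, 10 had no count in any library and 8 had too few. With edgeR's quasi-likelihood test and Benjamini-Hochberg adjustment over 16896 genes, 54 of the 108 were lower in Axin2+ at an adjusted p under 0.05, where 12.8% of all genes tested were lower. The number higher was 0, where 14.5% of all genes tested were higher. At an unadjusted p under 0.05 the counts were 64 lower and 0 higher, and the shares of all genes at that threshold are not given here. DESeq2 called 62 members lower and 0 higher, where it called 17.6% of all genes lower and 3113 of the 16896 higher. The median log2 fold change of the tested members was -1.33, against -0.01 for all genes tested, and the members that passed lay between -3.06 and -0.93. A member can pass the count minimum through its Axin2- libraries alone, so these figures describe the tested members and not the whole family. The count was sensitive to single libraries. It was 29 without the Axin2+ library of mouse 2, 34 without the Axin2- library of mouse 1 and 33 without the Axin2- library of mouse 3, where the shares of all genes called lower were 6.04%, 7.35% and 7.54%.

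The direction was shared more widely than the calls. The fold change was negative for 101 of the 108 tested members, where the median over all genes tested was -0.01. With libraries paired by mouse number, 83 members were lower in Axin2+ in all 3 mice, whereas 0 were higher in all 3. The shares of all genes with these paired patterns are not given here, and the pairing does not hold if cells were pooled. In 72 members the Axin2+ libraries all lay below the Axin2- libraries, and 23.2% of all genes tested showed that pattern. The 7 members with a positive fold change were Snord64, Scarna9, Snord19, Snora2b, Snora47, Snord92 and Snora69, none of which passed. They were chosen for mention after their values were seen, and each averaged under 2 CPM. The largest of these values, 1.55 ± 1.07 on the log2 scale for Snord64, had an adjusted p of 0.323 in the edgeR quasi-likelihood test with Benjamini-Hochberg adjustment.

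Members of higher level were called more often than those of low level, which was not tested as a difference. Among the 37 members that averaged at least 5 CPM over the 6 libraries, 30 were lower in Axin2+ and all 37 had a negative fold change, with a median of -1.51. Of all 11769 genes at that level 14.7% were lower. Among the 71 tested members under 5 CPM, 24 were lower and 64 had a negative fold change, with a median of -1.18, where 8.54% of all genes at that level were lower. The 7 members of at least 5 CPM that did not pass were Rpph1, Scarna2, Scarna10, Scarna13, Scarna17, Snora81 and Snord14c, so that 4 of the 7 were small Cajal body RNAs.

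**Figure D1:**
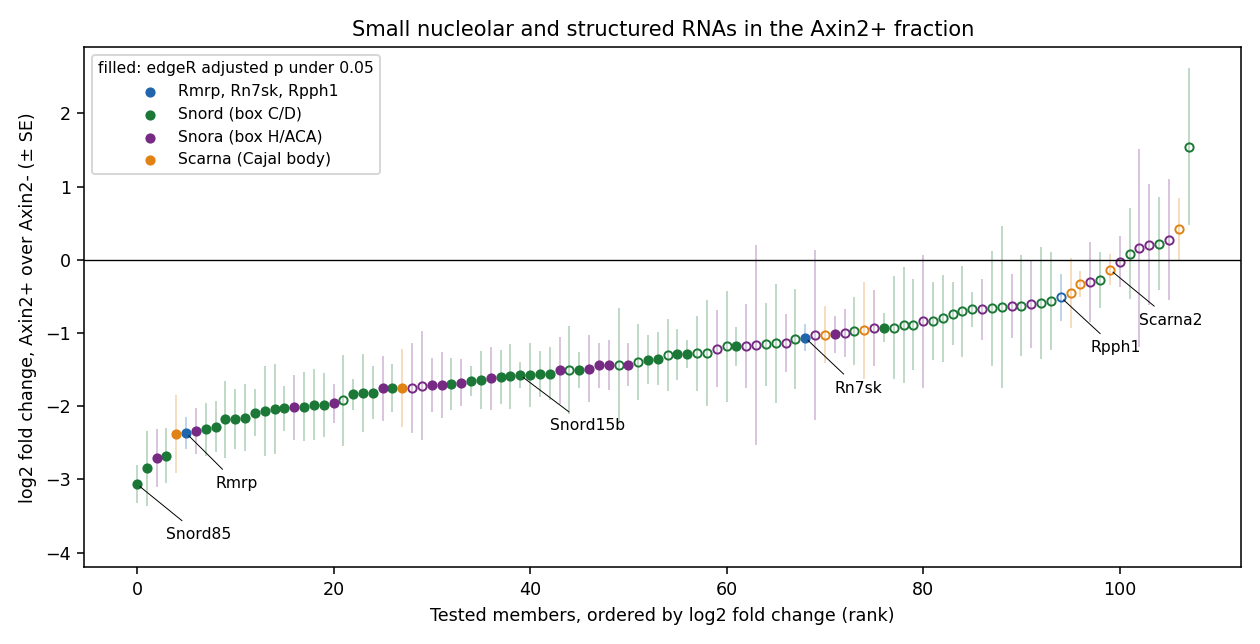
Log2 fold change of Axin2+ over Axin2- libraries (vertical axis, bars ± SE) for the 108 tested members, ordered from lowest to highest and coloured by class. Filled points passed at an edgeR adjusted p under 0.05: all 54 of them lie below 0, from Snord85 at -3.06 to -0.93, while Rpph1 and Scarna2 are open.

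Rmrp, the RNA of RNase MRP, was lower in the Axin2+ fraction of every mouse. It had 327, 412 and 418 CPM in Axin2+ libraries, against 1819, 1659 and 2494 CPM in Axin2- libraries. The fractions did not overlap, and the highest Axin2+ library was under the lowest Axin2- library. Its mean was 386 ± 51.0 CPM in Axin2+ and 1991 ± 443 CPM in Axin2- (SD, n = 3 each), so that the log2 fold change was -2.37 ± 0.22 (SE), with an edgeR quasi-likelihood adjusted p of 0.000591 (Benjamini-Hochberg). Its mean in Axin2+ libraries was 19.4% of that in Axin2- libraries.

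Rn7sk, the most abundant member, was lower by a smaller factor. Its level was 2779.5, 2549 and 2814 CPM in Axin2+ libraries, against 5259.6, 5308 and 6472 CPM in Axin2- libraries, again without overlap. The 3 Axin2+ libraries lay close together. On the log2 scale it was lower at -1.07 ± 0.18 (SE), with an edgeR quasi-likelihood adjusted p of 0.00628 (Benjamini-Hochberg). Rn7sk shares exact runs of at least 50 bases with 7 other annotated genes, and how reads of these copies were assigned is not given in the sources used here.

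Rpph1, the RNA of RNase P, did not pass. It had 3244, 1782 and 2796 CPM in Axin2+ libraries, against 4395, 2375 and 4389 CPM in Axin2- libraries. The fractions overlapped, since the Axin2- library of mouse 2 was below the Axin2+ libraries of mice 1 and 3, although within each mouse the Axin2+ library was the lower. The log2 fold change was -0.51 ± 0.32 (SE), with an edgeR quasi-likelihood adjusted p of 0.278 (Benjamini-Hochberg). The ratio of Rmrp to Rpph1 was 0.101, 0.231 and 0.150 in Axin2+ libraries, against 0.414, 0.699 and 0.568 in Axin2- libraries. These ratios did not overlap, with an exact two-sided permutation p of 0.1, the smallest that 3 libraries against 3 can give. The ratio of Rmrp to Rn7sk was 0.118, 0.162 and 0.149 in Axin2+ libraries, against 0.346, 0.313 and 0.385 in Axin2- libraries, also without overlap (exact two-sided permutation p = 0.1). Relative to both of these RNAs, Rmrp was thus lower in every Axin2+ library than in any Axin2- library.

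Per kilobase of RNA, Rn7sk and Rpph1 stood highest in both fractions. Rn7sk averaged 8199 CPM per kilobase in Axin2+ and 17159 in Axin2- libraries, and Rpph1 averaged 8174 CPM per kilobase in Axin2+ and 11661 in Axin2- libraries. Their ranges overlapped in the Axin2+ fraction and did not in the Axin2- fraction. Snord15b averaged 2319 CPM per kilobase in Axin2+ and 6917 in Axin2- libraries, while Rmrp averaged 1424 CPM per kilobase in Axin2+ and 7346 in Axin2- libraries. In Axin2+ all 3 libraries had more Snord15b than Rmrp per kilobase, whereas in Axin2- the ranges of these RNAs overlapped. The remaining members were lower, with Scarna2 at 372 CPM per kilobase in Axin2+ and 408 in Axin2- libraries and Snord17 at 252 in Axin2+ and 644 in Axin2- libraries.

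Summed over every member, tested or not, the box C/D and box H/ACA snoRNAs were both lower in Axin2+ and by a similar factor, while the small Cajal body RNAs overlapped. The 76 Snord RNAs summed to 438, 573 and 612 CPM in Axin2+ libraries, against 1412, 1615 and 1775 CPM in Axin2- libraries. The means were 541 ± 91.3 CPM in Axin2+ and 1601 ± 182 CPM in Axin2- (SD, n = 3 each), a log2 ratio of -1.57. The 38 Snora RNAs summed to 77.9, 129.97 and 119 CPM in Axin2+ libraries, against 269.9, 271 and 403 CPM in Axin2- libraries, a log2 ratio of -1.53. Neither sum overlapped between the fractions, and each had an exact two-sided permutation p of 0.1. The 9 Scarna RNAs summed to 173, 219 and 222 CPM in Axin2+ libraries, against 198, 218 and 306 CPM in Axin2- libraries, with overlap, a log2 ratio of -0.23 and an exact two-sided permutation p of 0.6.

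The balance between the classes differed between the fractions. The summed Snord level was 2.53, 2.61 and 2.76 times the summed Scarna level in Axin2+ libraries, against 7.15, 7.40 and 5.80 times in Axin2- libraries. The Snora to Scarna ratio was 0.450, 0.593 and 0.536 in Axin2+ libraries, against 1.37, 1.24 and 1.32 in Axin2- libraries. Neither ratio overlapped (exact two-sided permutation p = 0.1 for each). The Snora to Snord ratio was 0.178, 0.227 and 0.194 in Axin2+ libraries, against 0.191, 0.168 and 0.227 in Axin2- libraries, with a p of 0.8 in the same exact test. Snord15b and Scarna2 make up most of the summed Snord and Scarna levels, so these ratios lean on those members.

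Marker levels also varied among libraries of the same fraction. The Axin2- library of mouse 2 had the lowest smooth muscle sum, 2558 CPM, against 6878 and 5425 CPM for mice 1 and 3. Its Snord sum of 1615 CPM lay between theirs, while it was the lowest of the 3 for Rmrp (1659 CPM against 1819 and 2494), Rpph1 (2375 CPM against 4395 and 4389) and the sum of all members (11447 CPM against 13354 and 15838). Among Axin2+ libraries that of mouse 1 had the lowest Snord and Snora sums and the highest macrophage marker sum, with 4138 CPM against 2186 and 748 CPM for mice 2 and 3. The same library had the highest Rpph1 (3244 CPM against 1782 and 2796) and the highest sum of all members (7039.7 CPM against 5665 and 6981). With 3 libraries per fraction the part of these markers in the sums was not tested.

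**Figure D2:**
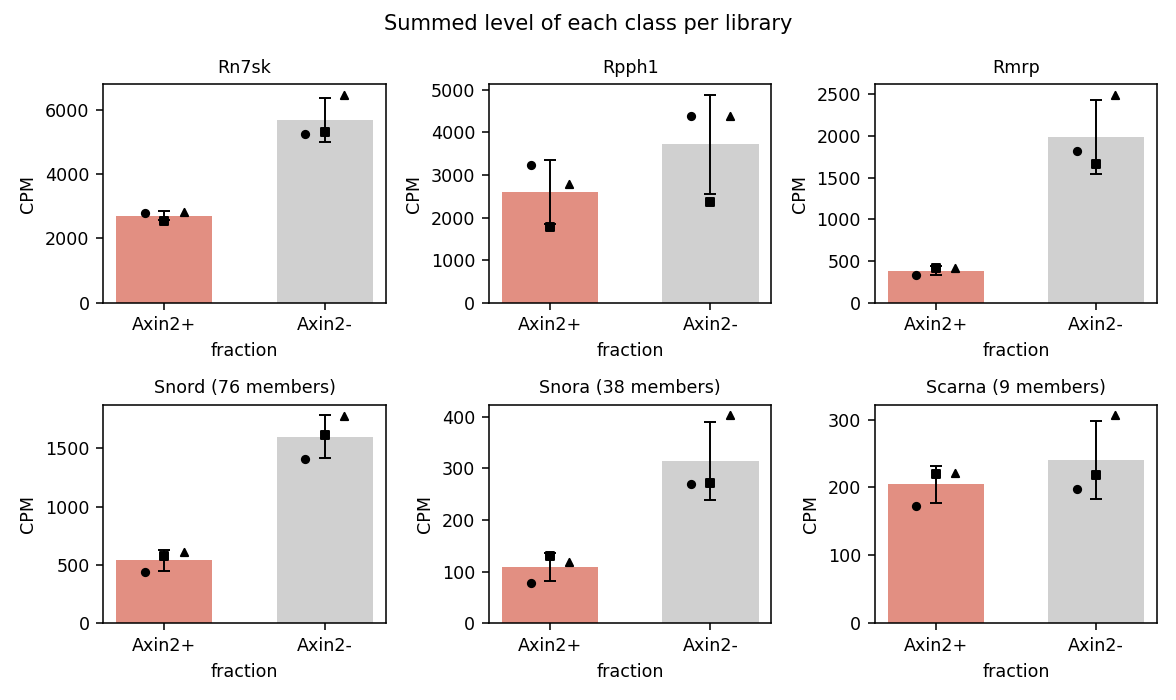
CPM per library for Rn7sk, Rpph1 and Rmrp and for the summed Snord, Snora and Scarna RNAs (bars, mean; error bars, SD of 3 libraries; circle, square and triangle, mice 1, 2 and 3). The Axin2+ libraries lie below the Axin2- libraries without overlap for Rn7sk, Rmrp, Snord and Snora, and overlap them for Rpph1 and Scarna.

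Members grouped for a part in cutting the ribosomal precursor were lower in most cases. This group comprised U22 (Snord22), U8 (Snord118), U13 (Snord13), the U14 genes and both U17 genes (Snora73a and Snora73b). Such roles are known from frog, yeast or human cells, except that a part of U13 in cutting is not established. Of the 9 members of the group all were tested and 7 were lower in Axin2+, where 12.8% of all genes tested were lower. The 9 are not independent, since Snora73b and Snora73a were 96.6% identical and Snord14d and Snord14c 97.7%. The median log2 fold change of the group was -1.57, with a range of -2.09 to -0.56 over all 9. The other tested box C/D RNAs had 30 of 57 lower and a median of -1.44, and the other tested box H/ACA RNAs 13 of 31 and a median of -1.18. No test set these groups against each other. They were not matched for level, and members of low level were called less often.

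Snord22, which overlaps an exon of Snhg1, had 8.73, 14.6 and 16.3 CPM in Axin2+ libraries, against 43.5, 47.2 and 78.1 CPM in Axin2- libraries. The fractions were far apart, at -2.09 ± 0.32 on the log2 scale (SE), with an edgeR quasi-likelihood adjusted p of 0.00390 (Benjamini-Hochberg). Snora73b had 8.005, 15.05 and 12.3 CPM in Axin2+ libraries, against 36.4, 50.3 and 50.7 CPM in Axin2- libraries. Its near copy Snora73a had 7.59, 17.99 and 14.9 CPM in Axin2+ libraries, against 37.3, 41.4 and 50.9 CPM in Axin2- libraries. Both U17 genes were lower without overlap, with log2 fold changes of -1.96 ± 0.26 for Snora73b and -1.68 ± 0.32 for Snora73a (SE), with edgeR quasi-likelihood adjusted p of 0.00233 and 0.00901 (Benjamini-Hochberg). Since reads could be split between these near copies, their separate values are uncertain.

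Snord118 had 3.95, 2.17 and 2.27 CPM in Axin2+ libraries, against 6.79, 11.8 and 6.90 CPM in Axin2- libraries. Snord13 had 4.00, 3.08 and 3.39 CPM in Axin2+ libraries, against 7.25, 9.80 and 6.69 CPM in Axin2- libraries. These RNAs, which like the polymerase III RNAs have no annotated gene around them on their strand, were lower at -1.60 ± 0.37 and -1.18 ± 0.27 on the log2 scale (SE; edgeR quasi-likelihood adjusted p = 0.0192 and 0.0178, Benjamini-Hochberg). Of the U14 genes, Snord14d and Snord14e in Hspa8 were lower, with log2 fold changes of -0.93 and -1.57. Snord14c, 97.7% identical to Snord14d, had -0.68 and an edgeR quasi-likelihood adjusted p of 0.0782 (Benjamini-Hochberg), and Snord14a in Rps13 had -0.56 at under 1 CPM.

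Among the box C/D guides, 35 of the 64 tested Snord genes were lower, where 12.8% of all genes tested were lower. The median log2 fold change of these 64 was -1.42. Snord85 had 1.33, 1.04 and 1.25 CPM in Axin2+ libraries, against 9.16, 10.5 and 10.6 CPM in Axin2- libraries. This was the lowest fold change of any tested member, 8.37-fold lower in Axin2+ at -3.06 ± 0.26 on the log2 scale (SE), with an edgeR quasi-likelihood adjusted p of 0.000450 (Benjamini-Hochberg). Snord15b, which guides methylation of large-subunit ribosomal RNA in human cells, had 276, 354 and 379 CPM in Axin2+ libraries, against 875, 1077 and 1058 CPM in Axin2- libraries. Its fractions did not overlap, and it was lower at -1.58 ± 0.18 on the log2 scale (SE), with an edgeR quasi-likelihood adjusted p of 0.00121 (Benjamini-Hochberg).

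Snord15a, the other U15 gene of the same host, had 16.4, 22.6 and 23.4 CPM in Axin2+ libraries, against 65.4, 64.1 and 93.6 CPM in Axin2- libraries. It was lower at -1.84 ± 0.21 on the log2 scale (SE; edgeR quasi-likelihood adjusted p = 0.00133, Benjamini-Hochberg). The ratio of Snord15b to Snord15a was 16.8, 15.7 and 16.2 in Axin2+ libraries, against 13.4, 16.8 and 11.3 in Axin2- libraries. These ratios overlapped, with an exact two-sided permutation p of 0.3. Further guides with small p-values were Snord83b in Rpl3, Snord23 in Nop53, Snord100 in Rps12 and Snord104, whose log2 fold changes were -1.65, -2.68, -2.03 and -1.29. In each of these the highest Axin2+ library was under the lowest Axin2- library. Snord23, for example, had 1.10, 0.661 and 1.005 CPM in Axin2+ libraries, against 4.41, 6.08 and 7.25 CPM in Axin2- libraries.

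Snord17, the Snord gene next in level after Snord15b in CPM, had 43.3, 75.2 and 61.6 CPM in Axin2+ libraries, against 128, 94.3 and 238 CPM in Axin2- libraries. The fractions did not overlap, but the Axin2- libraries were widely spread. The log2 fold change of -1.35 ± 0.36 (SE) passed with an edgeR quasi-likelihood adjusted p of 0.0319 (Benjamini-Hochberg). With mouse as a replicate block the adjusted p was 0.0505, and the call was also lost without any 1 of 5 libraries, at adjusted p of 0.0583 to 0.0694. Without the Axin2- library of mouse 3 the fold change was -0.87.

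Among the box H/ACA guides, 15 of the 33 tested Snora genes were lower, where 12.8% of all genes tested were lower. The median log2 fold change of these 33 was -1.22. Snora44, which overlaps an exon of Snhg12, had 3.02, 5.32 and 5.75 CPM in Axin2+ libraries, against 17.2, 28.5 and 25.6 CPM in Axin2- libraries. It was lower without overlap, at -2.34 ± 0.31 on the log2 scale (SE; edgeR quasi-likelihood adjusted p = 0.00235, Benjamini-Hochberg). Snora70 in Rpl10 had 0.811, 0.699 and 1.53 CPM in Axin2+ libraries, against 5.85, 6.75 and 7.31 CPM in Axin2- libraries. Here too every Axin2- library was above every Axin2+ library, with a log2 fold change of -2.71 ± 0.39 (SE) and an edgeR quasi-likelihood adjusted p of 0.00322 (Benjamini-Hochberg).

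Snora74a, in a host without a tested row, had 9.45, 35.7 and 23.2 CPM in Axin2+ libraries, against 55.3, 51.1 and 85.2 CPM in Axin2- libraries. It was lower at -1.49 ± 0.46 on the log2 scale (SE), at the edge of the threshold, with an edgeR quasi-likelihood adjusted p of 0.0498 (Benjamini-Hochberg). The call was lost with library size scaling (adjusted p 0.0653), with no filter on low counts (0.0818), without the Axin2+ library of mouse 3 (0.101) and without the Axin2- libraries of mice 1, 2 or 3 (0.0962, 0.075 and 0.15).

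The small Cajal body RNAs had 2 of 8 tested members lower, with a median log2 fold change of -0.71. Of all genes tested 12.8% were lower, and with so few members the count says little beside that share. Scarna2, a box C/D RNA that guides methylation of the spliceosomal U2 RNA in human cells, had 128, 169 and 165 CPM in Axin2+ libraries, against 125, 166 and 216 CPM in Axin2- libraries. The fractions overlapped almost fully, with a log2 fold change of -0.14 ± 0.21 (SE) and an edgeR quasi-likelihood adjusted p of 0.677 (Benjamini-Hochberg). The sign of this value turned with library size scaling (0.05) and without the Axin2- library of mouse 3 (0.10), so it has no firm direction. Scarna13 had 34.4, 37.1 and 43.2 CPM in Axin2+ libraries, against 50.6, 37.7 and 55.6 CPM in Axin2- libraries. Its fractions overlapped as well, with a log2 fold change of -0.33 ± 0.18 (SE) and an edgeR quasi-likelihood adjusted p of 0.212 (Benjamini-Hochberg).

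Those lower in this class were both of low level. Scarna3a had 0.190, 0.453 and 0.391 CPM in Axin2+ libraries, against 2.06, 1.66 and 1.67 CPM in Axin2- libraries. It was lower at -2.38 ± 0.53 on the log2 scale (SE; edgeR quasi-likelihood adjusted p = 0.0165, Benjamini-Hochberg), with the call lost without the Axin2- library of mouse 1 (adjusted p 0.0593). Scarna6 had 1.60, 2.21 and 1.77 CPM in Axin2+ libraries, against 7.23, 2.18 and 9.39 CPM in Axin2- libraries. It is the only member that passed while its fractions overlapped, since the Axin2- library of mouse 2 lay at the Axin2+ level. Its log2 fold change of -1.75 ± 0.53 (SE) had an edgeR quasi-likelihood adjusted p of 0.0471 (Benjamini-Hochberg), which was 0.121 with mouse as a replicate block, 0.0568 with library size scaling and 0.104 to 0.15 without any 1 of 5 libraries. Scarna17 had -1.02 ± 0.39 and did not pass in edgeR's quasi-likelihood test (adjusted p 0.0948, Benjamini-Hochberg) but did in DESeq2 (0.0395).

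**Figure D3:**
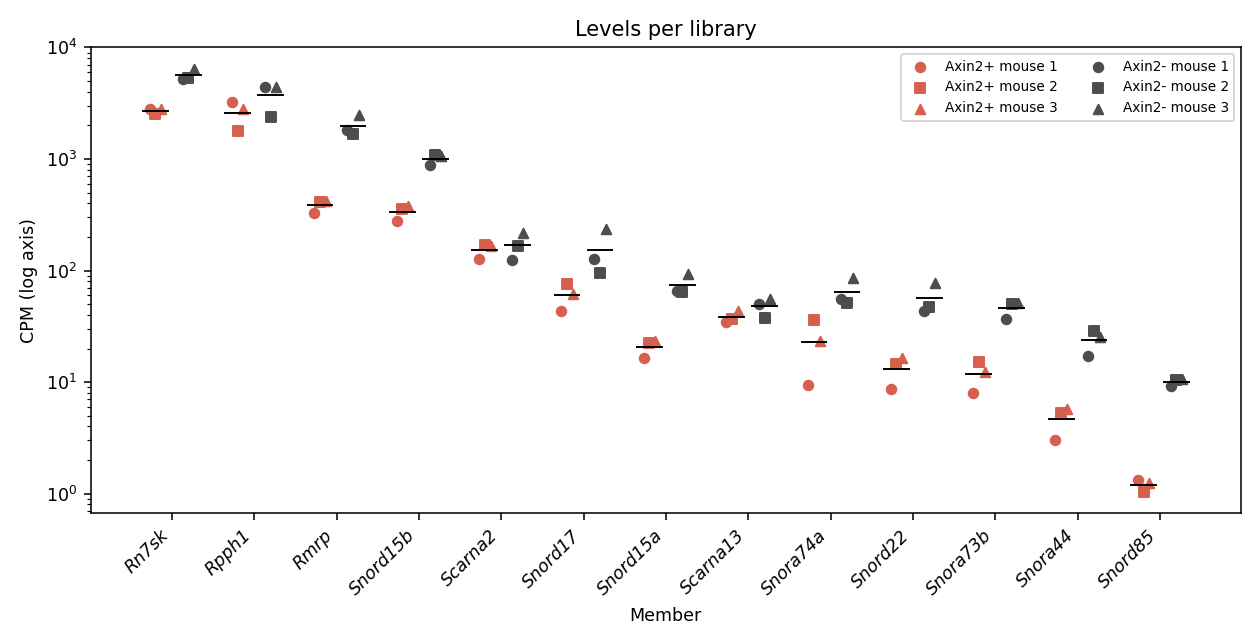
CPM on a log axis for 13 members in each library, with Axin2+ in red to the left of Axin2- in grey, mice 1, 2 and 3 as circle, square and triangle, and the mean as a line. Rn7sk, Rmrp, Snord15b, Snord15a, Snord22, Snora73b, Snora44 and Snord85 show clear separation, whereas Rpph1, Scarna2 and Scarna13 overlap.

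Most snoRNAs that were lower lie in host genes that did not pass the test. A host is here the annotated gene whose body contains the member on the same strand. Of the 108 tested members, 95 had a tested host, and these members had a median log2 fold change of -1.43, against -0.20 for their 72 distinct hosts. Of these hosts, 63 did not pass, and most genes tested did not either, with 12.8% lower and 14.5% higher. The 7 hosts called lower were Gas5, Nop53, Nop56, Snhg1, Snhg12, Snhg18 and Zfas1, and the 2 called higher were Ipo7 and Snx5. The member was below its host in 88 of 95 pairs, by a median of -1.10. Members and hosts correlated weakly across the 95 pairs, with a Pearson r of 0.30 and a Spearman rho of 0.35. These pairs share libraries, and several share a host. Of the 48 members with a tested host that were lower, the host did not pass for 36, was lower for 11 and was higher for 1.

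Ribosomal protein genes hosted 30 of these members, of which 15 were lower, with a median of -1.33. Of their 23 hosts 0 passed in edgeR's quasi-likelihood test or in DESeq2 and 0 had an unadjusted p under 0.05, with a median of -0.34 and a range of -0.55 to 0.35. Rps3, host of both U15 genes, averaged 694 ± 104 CPM in Axin2+ and 931 ± 315 CPM in Axin2- libraries (SD, n = 3 each), with a log2 fold change of -0.42 ± 0.25 (SE) and an edgeR quasi-likelihood adjusted p of 0.256 (Benjamini-Hochberg). The ratio of Snord15b to Rps3 counts was 0.472, 0.499 and 0.480 in Axin2+ libraries, against 1.18, 0.832 and 1.40 in Axin2- libraries. It was lower in Axin2+ without overlap (exact two-sided permutation p = 0.1).

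Other hosts moved with or against their snoRNAs. Snhg12 is a non-coding gene with 4 tested members, Snora44, Snord99, Snora61 and Snora16a, all 4 of which were lower (log2 fold changes of -2.34 to -1.51). Snhg12 itself was lower at -0.83 ± 0.16 (SE; edgeR quasi-likelihood adjusted p = 0.0102, Benjamini-Hochberg). All 4 overlap its exons, so reads of member and host overlap and their separation is uncertain. Snx5, an endosomal sorting gene and host of Snord17, was higher in Axin2+, with 250.9, 194 and 152 CPM against 103, 103 and 103 CPM in Axin2- libraries. Its log2 fold change was 0.95 ± 0.18 (SE), with an edgeR quasi-likelihood adjusted p of 0.00941 (Benjamini-Hochberg). The ratio of Snord17 to Snx5 was 0.173, 0.387 and 0.405 in Axin2+ libraries, against 1.24, 0.918 and 2.30 in Axin2- libraries (exact two-sided permutation p = 0.1). At the other end, Snord11 lay at -2.85 in Nop58, whose own log2 fold change was 0.09.

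**Figure D4:**
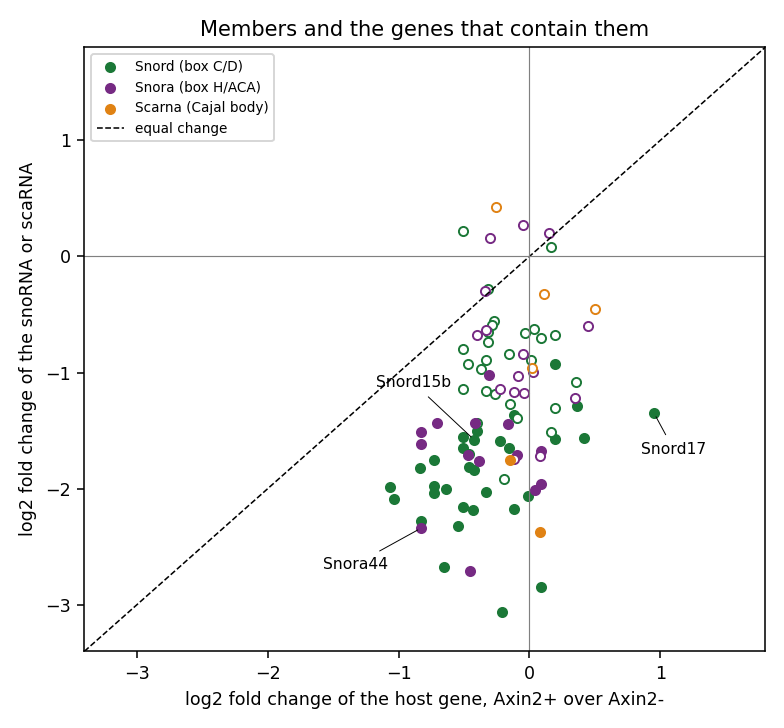
Log2 fold change of each of 95 members (vertical axis) against that of its host gene (horizontal axis), Axin2+ over Axin2-, with filled points for members that passed and the dashed line for equal change. Of the 95 points 88 lie below the line; Snord17 sits at a host value of 0.95, and Snora44 at -0.83.

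The members also differ in where they lie in a gene. For each count below, the share of all genes tested that were lower was 12.8%. Of 12 members that overlap a host exon 8 were tested and 7 were lower, and Snhg12 alone holds 4 of those tested. Overlap with a processed non-coding isoform counted as exon overlap in non-coding hosts but not in protein-coding hosts. Position and host type were thus not separated in these counts. Of 62 in introns 51 were tested and 27 were lower, and of 41 in introns that a non-coding isoform covers as an exon 39 were tested and 15 were lower. The 10 members with no gene around them had 5 lower, namely Rmrp, Rn7sk, Snord104, Snord118 and Snord13. Whether the counting used strand is not given in the sources used here, so reads of overlapping genes cannot be told apart with certainty.

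Members of every length class were among those that were lower, where 12.8% of all genes tested were lower. Those under 100 bases had 27 of 55 tested members lower, with a median log2 fold change of -1.36. Those of 100 bases up to 200 bases had 21 of 43 lower and a median of -1.28, and those of at least 200 bases had 6 of 10 lower and a median of -1.21. Over the 108 tested members length and fold change had a Pearson r of 0.11 and a Spearman rho of 0.05. At a mean of at least 5 CPM, with 37 members, these were 0.49 and 0.27, so that longer members tended to lie nearer 0 there. Among 209 other tested genes of at most 400 bases, 9 were lower and 10 were higher, with a median of -0.52. Of all genes tested 14.5% were higher, and of those under 5 CPM 8.54% were lower. At a mean of at least 5 CPM, 20 of the 209 were tested, of which 5 were lower and 5 higher, with a median of -0.08. Of all genes at that level 14.7% were lower. Of the 123 microRNA genes among all 209 4 were lower and 3 higher, and of 8 further annotated snoRNA genes without such a symbol 1 was lower while all 8 had negative fold changes. How well these libraries capture RNAs of such lengths was not tested.

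**Figure D5:**
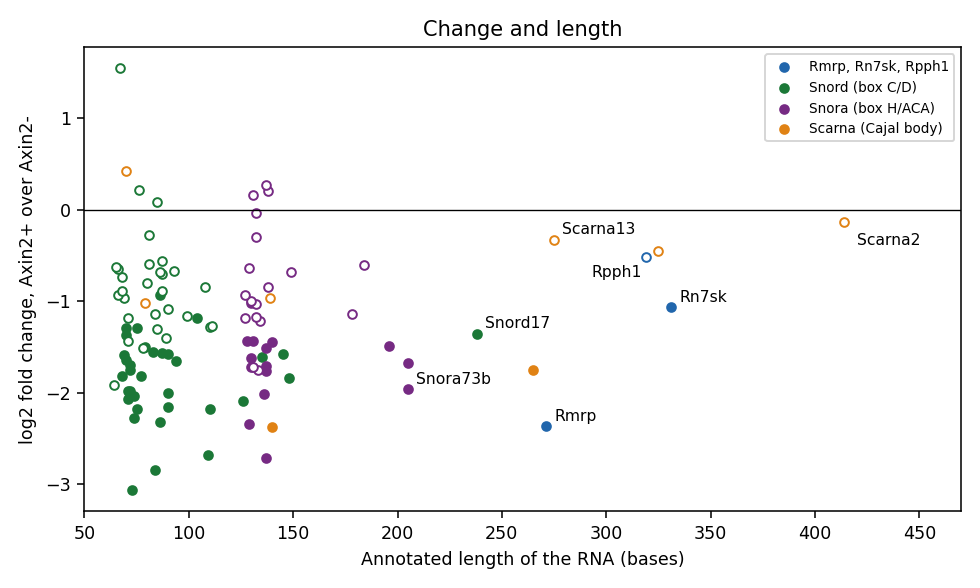
Log2 fold change of the 108 tested members, Axin2+ over Axin2-, against annotated length in bases; filled points passed at an edgeR adjusted p under 0.05. Members of every length class lie below 0, and among the longer ones Rmrp is at -2.37 while Scarna2 is at -0.14.

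The proteins that work with these RNAs mostly did not pass, as was true of all genes tested (12.8% lower and 14.5% higher). Of 5 core box C/D proteins 1 was lower, Nop56 at -0.46 ± 0.13 (SE; edgeR quasi-likelihood adjusted p = 0.0325, Benjamini-Hochberg), and the median log2 fold change was 0.00. Fbl, the methyltransferase, had 55.2, 55.3 and 58.3 CPM in Axin2+ libraries, against 57.6, 62.1 and 48.99 CPM in Axin2- libraries. Of 4 core box H/ACA proteins, 6 Cajal body and trafficking proteins and 11 proteins of RNase P and RNase MRP, 0 passed in edgeR's quasi-likelihood test, and the medians were 0.22, 0.01 and 0.30. DESeq2 also called 0 in these lists, and 0 had an unadjusted p under 0.05. Of 9 assembly factors Naf1 was higher (0.52) and Znhit3 lower (-0.91).

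Around 7SK, 1 of 7 proteins passed, where 12.8% of all genes tested were lower and 14.5% higher. Hexim1, which together with 7SK keeps P-TEFb inactive, had 158, 116 and 109.5 CPM in Axin2+ libraries, against 275, 244 and 203 CPM in Axin2- libraries. It was lower without overlap, at -0.91 ± 0.19 on the log2 scale (SE; edgeR quasi-likelihood adjusted p = 0.0117, Benjamini-Hochberg). Of 21 genes of RNA polymerase III and its factors at such promoters, Polr3k, Polr3b and Snapc2 were higher and Polr3gl and Zfp143 lower, with a median of -0.07. Polr3gl, an alternative polymerase III subunit, had a log2 fold change of -1.001 and Polr3k one of 0.76. Of 26 genes of ribosomal RNA transcription and early processing 1 passed, Taf1d at -0.89, and the median was -0.05.

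A few structured RNAs outside the members were also lower. Of 17 tested in the list, 3 were lower and 0 higher in edgeR's quasi-likelihood test (where 12.8% of all genes tested were lower) and 14 did not pass, with a median log2 fold change of -1.11. DESeq2 called 6 lower and 0 higher, where it called 17.6% of all genes lower. At an unadjusted p under 0.05 in edgeR, 6 of the list were lower and 0 higher. Rny3, a Y RNA bound by the Ro protein, had 10.2, 11.0 and 14.2 CPM in Axin2+ libraries, against 53.6, 40.8 and 45.5 CPM in Axin2- libraries. It was lower without overlap at -1.98 ± 0.19 on the log2 scale (SE; edgeR quasi-likelihood adjusted p = 0.000617, Benjamini-Hochberg), and Rny1 at -1.97. Rnu3a, a gene of the U3 snoRNA needed for cutting the ribosomal precursor, was lower at -1.65. Of 19 non-coding snoRNA host genes 6 were lower and 1, Snhg11, was higher, with a median of -0.43. Of all genes tested 12.8% were lower and 14.5% higher.

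In the authors' deposited table of their own comparison 91 members appear, of which 55 were lower in Axin2+ at an FDR under 0.05 and 0 higher. That table gives Rmrp a log2 fold change of -2.38 at an FDR of 0.000594, and Snord85 one of -3.07 at an FDR of 0.000467. The share of all genes called in it is not given here. Refitting the counts with a filter of above 0.5 CPM in 3 libraries also gave 91 tested members and 55 lower, with the same 2 fold changes. In that refit 14.3% of all genes were lower. The authors' comparison rests on the same libraries, so it is not separate evidence.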

How the data were processed

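Ribosomal RNA-depleted (Ribo-Zero Gold) total RNA was sequenced, per the labels' protocols. What the authors deposited for each gene is its raw read count in whole numbers. The build mm10 and the tools STAR 2.5.3a, featureCounts 1.5.3, Subread, edgeR 3.22.5, StringTie 1.3.3 and bcl2fastq 2.20.0.422 are named in the submitters' processing notes, without an order. Annotation, strand setting and treatment of multiply mapped reads were items not given in the sources used here. The authors' deposited comparison table holds, per gene, p-values with FDR, a log2 CPM, a log2 fold change and a test statistic (used as a score), per the file headers. Their mapping summary gives percent of read pairs per library, per the file headers: 27.21 to 30.15 percent of pairs fell in no known feature in Axin2+ and 28.86 to 34.62 percent in Axin2- libraries.

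The tests ran in edgeR 4.0.16 under R 4.3.3, with filterByExpr, TMM scaling, a quasi-likelihood F test (robust) of the fractions without a mouse block, and Benjamini-Hochberg adjustment over 16896 genes at a threshold of 0.05. Each SE is the fold change divided by the root of its F. Sums and ratios were tested with exact two-sided permutation over libraries. Totals were 49714402 to 59597315 counts, so a count of 0 allows up to 3 counts, or 0.0518 to 0.0618 CPM, which covers counting error only. Tested on simulated counts of this comparison (16546 genes), the fit made 102 calls, 8 of them false, and recovered 28.4% of 2-fold and 70.5% of 4-fold changes. The simulation held 95 changed genes of each size, whereas 4618 genes were called in the data, so these rates need not hold there.

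Sequences, coordinates and hosts come from GENCODE M21 on GRCm38, the assembly that mm10 names. A host with a row in the count table was preferred, then a protein-coding one, then the longest. The members and the gene lists were chosen with earlier results of these data known. The rule for named genes took Rmrp, Rn7sk, Rpph1, the 12 members with the smallest p in each direction among those that passed, the 10 with the highest CPM, the 3 smallest p per class, up to 4 genes per list that passed or the 2 with the highest CPM where none did, and the hosts. Members named outside it were chosen after their values were seen. The labels number the libraries by mouse. Deviations from the fraction means correlated at 0.31, 0.03 and -0.11 for mice 1, 2 and 3, and at up to 0.31 between different mice. Alternatives were mouse as a block, other scalings, other filters, DESeq2 1.42.0, removal of ribosomal RNA rows and leaving out each library. The host of 1 named snoRNA is not reported here.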

Additional observations from a re-analysis of the deposited data

How the results depend on the processing

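The count of members called lower was 54 and of members called higher 0. Across the alternative scalings, filters, tool and block the lower count was 47 to 62 and the higher count 0. The 47 came with library size scaling, where 9.31% of all genes were lower, and the 62 with DESeq2, where 17.6% were. With mouse as a replicate block, which pairs the libraries of a mouse as the labels number them, 48 members were lower and 0 higher. All 48 were among the 54, and 11.1% of all genes were lower with the block. Leaving out each library in turn gave 29 to 43 lower and 0 higher, where 6.04% to 11.0% of all genes were lower. Chosen after seeing the data, the restriction to members of at least 5 CPM gave 30 lower and a median log2 fold change of -1.51. Of all genes at that level 14.7% were lower. The median of -1.33 was -1.14 with library size scaling, which moved the median of all genes tested to 0.16, and -1.58 with at least 1 CPM in 3 libraries. Without each library in turn it was -1.48 to -1.17.

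Leaving out each library, the log2 ratio of summed levels was -1.66 to -1.43 for Snord, -1.68 to -1.31 for Snora, -0.36 to -0.02 for Scarna, -2.48 to -2.17 for Rmrp, -1.12 to -0.96 for Rn7sk, -0.75 to -0.30 for Rpph1, -1.15 to -0.92 for all members and -1.42 to -1.20 for all but the polymerase III RNAs. Scarna2 turned to 0.046 with library size scaling and to 0.10 without the Axin2- library of mouse 3, with a range of -0.28 to 0.10 over the left-out libraries, and the cause was not tested. Of the other values for single named members under these alternatives 292 kept their direction and side of the threshold, 20 lost the call and 1 gained it. The block ended 6 of the 54 calls, those of Scarna6, Snord17, Snord61, Snord65, Snord66 and Snord123. Members under 5 CPM rest on few counts, so a member that did not pass may still differ. The fit recovered 28.4% of simulated 2-fold changes, but with far fewer changed genes than were called in the data.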

Other observations

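Of the 10 members with no count, some lie in genes that were measured. The members listed at 0 in every library were Snora24, Snora26, Snora35, Snord116, Snord116l1, Snord116l2, Snord1a, Snord45c, Snord7 and Snord93, and a count of 0 allows at most 3 counts per library by counting error alone. Snord116l1 and Snord116l2 share exact runs of 50 bases with 67 other annotated genes and Snora26 with 1, and Snora26, Snord1a and Snord45c overlap exons of their hosts. How such reads were assigned is unknown, so their part in these counts of 0 was not tested. The 8 members with counts but too few for a test were Scarna8, Snora19, Snora20, Snord1c, Snord42a, Snord4a, Snord88a and Snord90, with totals of 25 to 66 counts over the 6 libraries.

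Hosts with several members showed unlike values for RNAs of the same transcription unit. In Nop58, Snord11 had a log2 fold change of -2.85 and Snord70 one of -0.70, the first with an edgeR quasi-likelihood adjusted p of 0.00741 and the second with 0.44 (Benjamini-Hochberg). In Rpl13a, 3 of 4 tested members were lower, between -2.15 and -1.56, and Snord33 at -1.14 was not called. All 3 tested members of 2410006H16Rik were lower, between -2.04 and -1.75, beside a host value of -0.73. Of the tested members of Gnl3, Rack1, Kansl2 and Wdr43, 2 in each, 0 were called. The differences between members of a host were not tested. All the members together took 0.696 ± 0.0864% of counts in Axin2+ and 1.27 ± 0.161% in Axin2- libraries (SD, n = 3 each).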
